A study of Mus musculus with 6 samples.

Results

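Respiratory complex I (NADH:ubiquinone oxidoreductase) is the entry point of the mitochondrial electron transport chain. It takes electrons from NADH through a flavin and a row of iron-sulfur clusters to ubiquinone, and it pumps protons through an arm that lies in the inner membrane. Its subunits are encoded partly in the nucleus, by genes whose symbols start with Nduf, and partly in mitochondrial DNA, by the mt-Nd genes, and dedicated assembly factors join separately built modules into the finished enzyme. The genes described here are the nuclear ones: all rows of the deposited count table whose symbol is Nduf followed by a, ab, af, b, c, s or v and digits, with a summed raw count of at least 60 over the 6 libraries. Of 31017 symbols, 46 matched the pattern and 45 reached that sum. The 45 are 36 subunit genes, 8 Ndufaf assembly factor genes and Ndufa4, whose product was long listed as a complex I subunit and is now placed in cytochrome c oxidase. The row just below the threshold was Ndufa4l2, an Ndufa4 paralog, with 5 counts, and the lowest row above it was Ndufb2 with 463. All 45 genes passed the low-count filter of the test and none was lost to it.

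RNA was taken from the mouse mammary carcinoma line 4T1, cultured in 3D gels of collagen I and freed with collagenase I before extraction. The 3 control samples had been nucleofected with Cas9 and control guides (sgCTRL), and the 3 ETV4 KO samples with Cas9 and guides against ETV4, an ETS-family transcription factor. The 3 ETV4 KO libraries share the code c39, and the sources used here do not say whether this is 1 clone or whether each library came from its own culture, so p-values reflect no more than the spread among these 6 libraries, which may be technical. Total counts ran from 22355015 to 29042569 per library.

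Etv4 itself was counted 3098, 3648 and 3030 times in control replicates 1, 2 and 3 and 2503, 2217 and 2207 times in ETV4 KO (log2 fold change -0.58, SE 0.036, edgeR adjusted p = 1.03e-14). All 5 epithelial markers checked (Epcam, Krt8, Krt18, Krt14, Cdh1) were present and all 5 fell, with a summed level of 4653 to 4790 CPM in controls and 3293 to 3437 CPM in ETV4 KO. The 3 endothelial markers summed to at most 0.314 CPM and the 2 adipocyte markers to at most 0.0699 CPM in every library. The 4 leukocyte markers summed to 9.45 to 9.99 CPM in controls and 9.41 to 11.2 CPM in ETV4 KO, nearly all of it Cd68, with Adgre1 and Cd3e at 0 counts. The 4 fibroblast markers summed to 9.83 to 11.7 CPM and 12.9 to 14.6 CPM, nearly all of it Pdgfra (log2 fold change 0.32), with Col1a1, Col1a2 and Dcn near 0. Their part in the results was not tested. In bulk RNA, fewer cells of a type and less RNA per cell cannot be told apart.

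Taken over the whole complex, nuclear complex I mRNA was at nearly the same level in both groups. The 36 subunit genes summed to 2144, 2289 and 2229 CPM (depth-normalised counts, scaled by TMM) in controls and to 2130, 2323 and 2192 CPM in ETV4 KO. The 8 Ndufaf genes summed to 99.3, 105.8 and 109.5 CPM in controls and to 104.0, 101.7 and 101.9 CPM in ETV4 KO. In both sums the groups overlapped. Single genes did differ: at an edgeR quasi-likelihood adjusted p under 0.05, the call used throughout, 9 of the 45 members rose and 13 fell in ETV4 KO. The background was high in this comparison, since 71.1% of the 12076 genes tested were called, 35.0% higher and 36.0% lower. Of the members 48.9% were called, fewer than over all genes, and among genes with a log2 CPM above 3 the background was 76.4%.

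The sizes were small as well. The median absolute log2 fold change (ETV4 KO against control) was 0.16 over the members and 0.29 over all genes tested, and 2 of the 45 members, Ndufaf8 and Ndufb4, differed by 0.5 or more, where 27.0% of all genes did. The signed median was -0.01 for the 36 subunit genes and 0.00294 for the 8 Ndufaf genes, beside -0.00384 for all genes. Tested against a fold change of 1.2 (glmTreat), 4 members were higher (Ndufa1, Ndufv2, Ndufa11, Ndufb10) and 4 lower (Ndufaf8, Ndufb4, Ndufb3, Ndufa12), with a background of 37.0% called. In 18 of the 45 members the 2 groups did not overlap, against 72.7% of all genes tested. SEs of the members' log2 fold changes ran from 0.033 (Ndufa4) to 0.16 (Ndufb2).

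**Figure D1:**
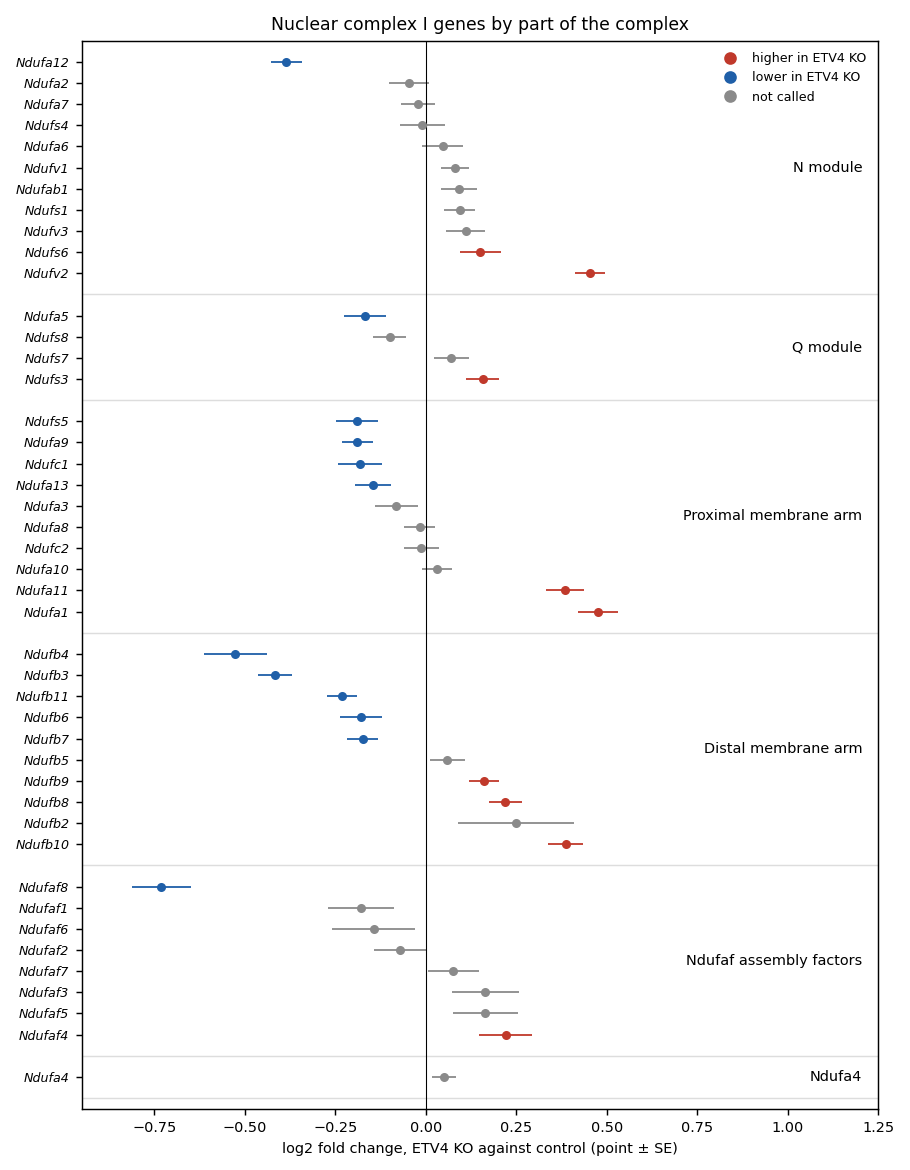
Log2 fold change of the members (all but 1 drawn) in ETV4 KO against control (x axis, point with SE), grouped by part of the complex and coloured by the call. Most points lie within 0.25 of 0, and each module holds genes on both sides.

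Because ETV4 binds DNA as an ETS factor, the promoters of the members were searched for an ETS core with its flank, CCGGAAG, on both strands, in windows from 250 bases before to 50 after the RefSeq start site (GRCm38.p6). Of the 45 members 40 had a window, and 6 of these 40 (15%) held the motif, where 21.1% of tested genes and 9.93% of all RefSeq genes with a window did. It was in 1 of 8 members called higher, 3 of 12 called lower and 2 of 20 not called. The 4 called members with a match are printed because the knocked-out factor belongs to the family that reads these letters. Each line runs 5′ to 3′ on the gene's strand. Capitals mark CCGGAAG or its reverse complement CTTCCGG and, in Ndufaf8, also AAGATGGC, the core of a YY1 site.
Ndufaf8 (chromosome 11, plus strand, 120098684 to 120098983): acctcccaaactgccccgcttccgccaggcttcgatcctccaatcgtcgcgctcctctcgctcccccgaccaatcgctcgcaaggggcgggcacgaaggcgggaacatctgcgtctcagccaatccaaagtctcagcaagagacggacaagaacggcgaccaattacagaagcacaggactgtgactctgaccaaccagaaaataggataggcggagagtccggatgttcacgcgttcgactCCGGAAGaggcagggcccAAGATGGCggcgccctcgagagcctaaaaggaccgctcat
Ndufb6 (chromosome 4, minus strand, 40279372 to 40279671): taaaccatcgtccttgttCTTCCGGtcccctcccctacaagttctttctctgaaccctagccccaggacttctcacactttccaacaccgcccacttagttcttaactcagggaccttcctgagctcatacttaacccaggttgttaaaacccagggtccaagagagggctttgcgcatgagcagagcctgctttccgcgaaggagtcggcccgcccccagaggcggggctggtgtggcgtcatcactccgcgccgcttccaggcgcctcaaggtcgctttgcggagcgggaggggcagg
Ndufb7 (chromosome 8, plus strand, 83566508 to 83566807): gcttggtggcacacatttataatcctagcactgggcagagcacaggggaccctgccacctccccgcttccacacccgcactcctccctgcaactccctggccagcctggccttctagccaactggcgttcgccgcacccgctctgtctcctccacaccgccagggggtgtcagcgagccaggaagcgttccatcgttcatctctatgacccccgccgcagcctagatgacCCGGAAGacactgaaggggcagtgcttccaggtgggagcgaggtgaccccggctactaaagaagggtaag
Ndufs3 (chromosome 2, minus strand, 90904672 to 90904971): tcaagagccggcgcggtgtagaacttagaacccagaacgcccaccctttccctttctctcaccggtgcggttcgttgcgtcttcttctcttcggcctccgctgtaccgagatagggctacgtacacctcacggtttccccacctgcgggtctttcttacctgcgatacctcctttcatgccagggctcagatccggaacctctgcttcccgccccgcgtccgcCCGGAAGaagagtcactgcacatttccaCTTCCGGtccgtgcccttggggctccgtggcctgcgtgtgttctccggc
In Ndufaf8 the ETS letters start 8 bases before the start site, in Ndufb7 20 bases before it and in Ndufb6 232 bases before it. Ndufs3 holds them on both strands, starting 27 bases before the start site and at position 2, with the start site as position 1. Motifs of a pair of other regulators of mitochondrial genes were searched in the same windows: the NRF1 palindrome, GCGCA followed by its reverse complement, was in 3 of 40 members (7.5%) and 2.43% of tested genes, and AAGATGGC was in 8 of 40 (20%) and 5.57%. No motif overlaps another in the windows printed. A match is a description of the letters and not a binding site.

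The N module, the tip of the matrix arm where NADH is oxidised, held 11 measured members, of which 2 rose and 1 fell. That is 27.3% called, beside 71.1% of all genes tested, and the median log2 fold change was 0.08. Ndufv2 (chromosome 17, 66078638 to 66101559 in mm10), an iron-sulfur subunit beside the flavin site, had 91.6, 94.9 and 87.1 CPM in control replicates 1, 2 and 3 and 120.2, 132.9 and 122.2 CPM in ETV4 KO. All 3 ETV4 KO values were above all 3 control values, and its log2 fold change was 0.45 (SE 0.041, edgeR adjusted p = 4.76e-11). Its partner Ndufv1, which binds the flavin and NADH, had 100.7, 103.4 and 102.2 CPM in controls and 102.6, 110.3 and 111.4 CPM in ETV4 KO. These groups overlapped, and 0.08 (SE 0.038) did not pass (edgeR adjusted p = 0.0601); Ndufv1 was called higher without ETV4 KO replicate 1 (0.12, edgeR adjusted p = 0.00863). Ndufs1, the large iron-sulfur subunit of the module, had 77.0, 78.4 and 75.4 CPM in controls and 76.4, 86.0 and 84.4 CPM in ETV4 KO. The first ETV4 KO library lay among the controls, and 0.09 (SE 0.043) just missed the threshold (edgeR adjusted p = 0.0528). Ndufs1 was called higher without ETV4 KO replicate 1 (0.15, edgeR adjusted p = 0.00294).

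Ndufa12 (chromosome 10, 94198720 to 94221443), an accessory subunit at the base of the N module, went the other way. It had 153.3, 162.7 and 160.6 CPM in controls and 112.7, 133.0 and 119.7 CPM in ETV4 KO, groups that did not overlap (log2 fold change -0.39, SE 0.044, edgeR adjusted p = 4.59e-09). Its paralog Ndufaf2, an assembly factor that holds the place of Ndufa12 until late in assembly, had 20.4, 24.8 and 25.1 CPM in controls and 21.9, 24.6 and 20.5 CPM in ETV4 KO. The groups overlapped, and -0.07 (SE 0.073) did not pass (edgeR adjusted p = 0.393). Ndufs6, a zinc-binding subunit of the module, rose by 0.15 (SE 0.056, edgeR adjusted p = 0.0185), but its groups overlapped. The Ndufs6 call was lost without control replicate 1 (0.09), without control replicate 3 (0.13) or ETV4 KO replicate 2 (0.11). It was also lost with upper-quartile scaling (0.11) and with library size alone (0.10). The others were not called: Ndufv3 (0.11; called without control replicate 2, with 0.17), Ndufab1, the mitochondrial acyl carrier protein (0.09; called without control replicate 2, with 0.15), Ndufa6 (0.05), Ndufs4 (-0.01), Ndufa7 (-0.02) and Ndufa2 (-0.05).

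The Q module, which passes electrons to ubiquinone, held genes that moved in both directions. Ndufs3 rose from 54.3, 58.6 and 55.0 CPM to 61.6, 66.0 and 59.98 CPM (log2 fold change 0.16, SE 0.046, edgeR adjusted p = 0.00306), with no overlap between groups. The iron-sulfur subunits Ndufs7 and Ndufs8 did not pass. Ndufs7 had 61.6, 64.1 and 59.9 CPM in controls and 59.5, 69.4 and 66.5 CPM in ETV4 KO (0.07, SE 0.049, edgeR adjusted p = 0.192; called without ETV4 KO replicate 1, with 0.13). Ndufs8 had 58.8, 60.1 and 57.3 CPM in controls and 51.4, 58.0 and 55.3 CPM in ETV4 KO (-0.10, SE 0.046, edgeR adjusted p = 0.0557; called without ETV4 KO replicate 2, with -0.14). Both pairs of groups overlapped. Ndufa5, an accessory subunit of this module, fell (-0.17, SE 0.058, edgeR adjusted p = 0.0108), a call that was lost without control replicate 2 (-0.15), without replicates 1 (-0.12) or 3 (-0.12) of ETV4 KO.

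In the proximal membrane arm, next to the matrix arm, 2 of 10 genes rose and 4 fell (median -0.05). That is a smaller share called than the 71.1% of all genes tested. Ndufa1 (chromosome X, 37187588 to 37191163), a small membrane subunit, had 28.3, 30.4 and 27.8 CPM in controls and 38.4, 43.1 and 39.2 CPM in ETV4 KO. The groups stood well apart, and at 0.48 (SE 0.055, edgeR adjusted p = 7.72e-09) this was the largest rise among the members. Ndufa11 (chromosome 17, 56717767 to 56722141), a subunit at the contact with complex III in supercomplexes, rose from 27.6, 27.5 and 27.8 CPM to 35.8, 35.7 and 36.8 CPM, by 0.38 (SE 0.051, edgeR adjusted p = 1.03e-07). The replicates of Ndufa11 lay unusually close together, with an SD of 0.188 CPM in controls and 0.609 CPM in ETV4 KO. Ndufs5 had 42.2, 48.8 and 46.5 CPM in controls and 37.97, 44.2 and 38.6 CPM in ETV4 KO (-0.19, SE 0.057, edgeR adjusted p = 0.00414). Its groups overlapped, and the call was lost without control replicate 2 (-0.14). The other falls were Ndufa9, at the junction of the arms (-0.19), Ndufc1 (-0.18) and Ndufa13 (-0.15), with SEs of 0.042 to 0.060. The call of Ndufc1 was lost without control replicate 3 (-0.15) or ETV4 KO replicate 3 (-0.15). That of Ndufa13 was lost without control replicate 2 (-0.09), without replicates 1 (-0.11) or 3 (-0.12) of ETV4 KO. Ndufa3 (-0.08; called without ETV4 KO replicate 2, with -0.17), Ndufa8 (-0.02), Ndufc2 (-0.01) and Ndufa10 (0.03) did not pass.

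The distal membrane arm, where the Ndufb subunits surround the outer proton pumps, had 3 of 10 genes higher and 5 lower (80.0%, near the 76.4% called among all genes with a log2 CPM above 3), with a median of -0.06. Ndufb4 (chromosome 16, 37647170 to 37654453) had 14.3, 11.7 and 13.9 CPM in controls and 9.47, 8.97 and 9.12 CPM in ETV4 KO, and at -0.53 (SE 0.087, edgeR adjusted p = 3.64e-06) it was the largest fall of a subunit gene. Ndufb3 (chromosome 1, 58586384 to 58595964) fell from 51.9, 55.2 and 52.3 CPM to 39.4, 41.4 and 38.6 CPM, a change of -0.42 (SE 0.047, edgeR adjusted p = 5.13e-09). Ndufb11 (chromosome X, 20615326 to 20617619) had 77.6, 79.9 and 78.0 CPM and 64.2, 70.5 and 66.1 CPM, a change of -0.23 (SE 0.042, edgeR adjusted p = 1.45e-05). In each of these 3 genes every ETV4 KO library was below every control library. Smaller falls were Ndufb7 (-0.17, SE 0.043) and Ndufb6 (-0.18, SE 0.059); the Ndufb6 call was lost without control replicate 2 (-0.13), without replicates 1 (-0.14) or 3 (-0.14) of ETV4 KO.

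Against these, Ndufb10 (chromosome 17, 24722060 to 24724478) rose from 49.4, 53.6 and 53.8 CPM to 63.4, 70.5 and 71.4 CPM, by 0.39 (SE 0.048, edgeR adjusted p = 3.14e-08). Ndufb8, often used as the blot marker of assembled complex I, rose by 0.22 (SE 0.045, edgeR adjusted p = 8.71e-05) and Ndufb9 by 0.16 (SE 0.041, edgeR adjusted p = 0.00103), both without overlap. Subunits of the same arm thus moved in opposite directions: relative to the control mean Ndufb4 fell by 31.0% and Ndufb10 rose by 31.0%. Ndufb2 had the lowest level of all members, 2.54, 3.25 and 2.55 CPM in controls and 3.91, 2.99 and 3.01 CPM in ETV4 KO. Its groups overlapped, and 0.25 (SE 0.16) did not pass (edgeR adjusted p = 0.167). Ndufb5 (0.06) did not pass either.

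**Figure D2:**
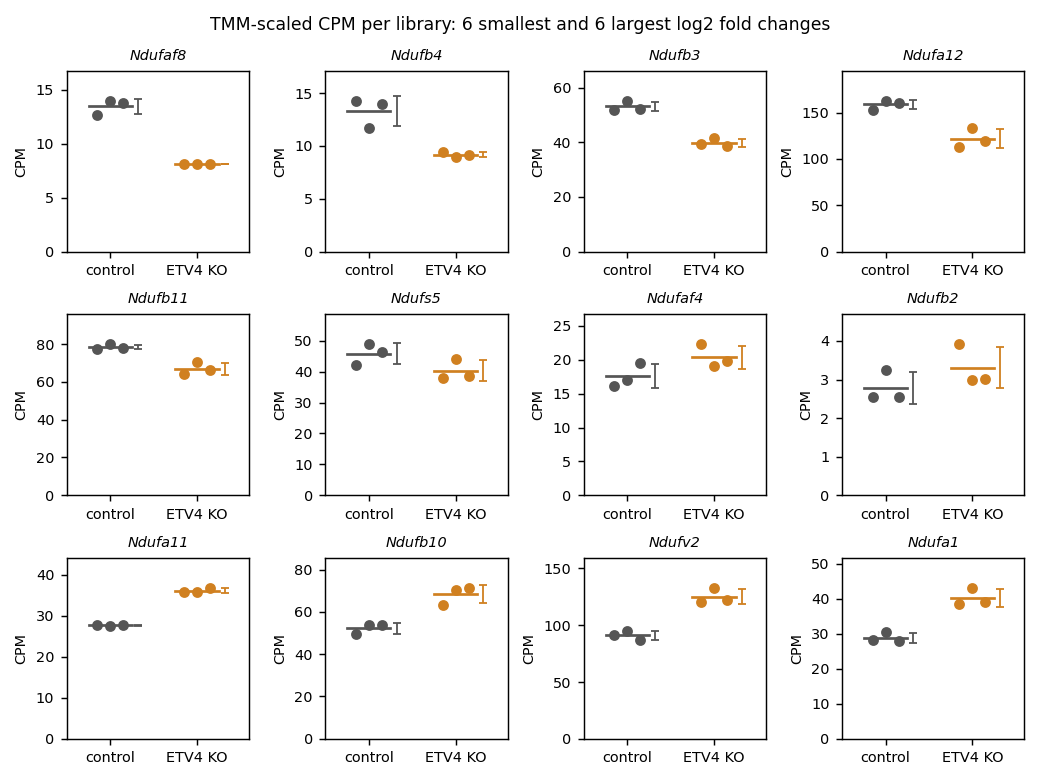
TMM-scaled CPM (y axis, from 0) in each of the 3 control and 3 ETV4 KO libraries for the 6 members with the smallest and the 6 with the largest log2 fold change; lines are group means and bars SDs. The groups lie apart in 9 of the 12 panels and overlap in those of Ndufs5, Ndufaf4 and Ndufb2.

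Among the 8 assembly factors 1 rose and 1 fell, a smaller share than the 71.1% called among all genes tested. Ndufaf8 (chromosome 11, 120098928 to 120100705), which stabilises Ndufaf5, had 12.7, 13.96 and 13.8 CPM in controls and 8.10, 8.12 and 8.16 CPM in ETV4 KO. It fell by 39.7% (log2 fold change -0.73, SE 0.082, edgeR adjusted p = 4.48e-09), the largest change of all 45 members, and the groups were far apart. Ndufaf5, which hydroxylates an arginine of Ndufs7, had 8.28, 8.12 and 8.05 CPM in controls and 9.01, 8.81 and 9.62 CPM in ETV4 KO. Although its groups did not overlap, 0.16 (SE 0.090) did not pass (edgeR adjusted p = 0.103). Ndufaf4 and Ndufaf3 act together on the Q module. Ndufaf4 rose by 0.22 (SE 0.074, edgeR adjusted p = 0.00904) from 16.1, 17.0 and 19.5 CPM to 22.3, 19.0 and 19.8 CPM, with overlap; the call was lost without control replicate 1 (0.17, edgeR adjusted p = 0.0656) or ETV4 KO replicate 1 (0.15, edgeR adjusted p = 0.103). Ndufaf3 had 8.06, 9.82 and 9.77 CPM in controls and 10.8, 10.7 and 9.49 CPM in ETV4 KO, and 0.16 (SE 0.092) did not pass (edgeR adjusted p = 0.112).

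The remaining assembly factors were not called, and in each the groups overlapped. Ndufaf1, which works on the membrane arm with Ecsit and Acad9, had 9.31, 10.4 and 9.85 CPM in controls and 8.14, 8.72 and 9.41 CPM in ETV4 KO (-0.18, SE 0.090, edgeR adjusted p = 0.0783; called lower without ETV4 KO replicate 3, with -0.23). Ndufaf6 had 7.07, 5.98 and 5.76 CPM and 5.52, 5.25 and 6.27 CPM (-0.14, SE 0.11, edgeR adjusted p = 0.266). Ndufaf7, an arginine methyltransferase, had 17.4, 15.7 and 17.6 CPM and 18.2, 16.4 and 18.7 CPM (0.08, SE 0.071, edgeR adjusted p = 0.338). Control levels were scaled to the length of the longest principal transcript in GENCODE M21. Those of the Ndufaf genes ran from 4.83 (Ndufaf4) to 34.6 CPM per kb with a median of 6.89. Those of the subunit genes ran from 0.636 (Ndufb2) to 162.9 (Ndufb7) with a median of 62.2. Both lowest values rest on long transcripts, 4371 bases for Ndufb2 and 3632 for Ndufaf4, beside 623 for Ndufb7. Ndufa4 stood at 292.7 CPM per kb in controls. It had 176.9, 178.7 and 180.1 CPM in controls and 189.0, 184.7 and 180.7 CPM in ETV4 KO, which did not overlap, but 0.05 (SE 0.033) did not pass (edgeR adjusted p = 0.176).

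The members were then set beside the other genes of their chromosome. Of the 6 members on chromosome 17, whose genes with a log2 CPM above 3 had a median log2 fold change of 0.37, 3 rose (Ndufv2, Ndufb10, Ndufa11) and 0 fell. The member on chromosome 11 (median -0.38) was Ndufaf8, and that on chromosome 16 (median -0.24) was Ndufb4, the largest falls of an assembly factor and of a subunit. For each member a local median was taken over the other genes in its 10 Mb bin with a log2 CPM above 3 (of its chromosome for Ndufaf4, whose bin held too few). Of the 22 called members 21 had the sign of that local median, and of all 45 members 30 did. Ndufaf4 was the exception among the called members, with 0.22 against -0.16. The same counts were not made over all genes tested. Across the 45 members Pearson's r between the log2 fold change and the local median was 0.62 and Spearman's rho 0.50; over 8951 expressed genes they were 0.38 and 0.52. These are descriptions: genes are not replicates, and all points share the same 6 libraries. What underlies the local medians was not tested.

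**Figure D3:**
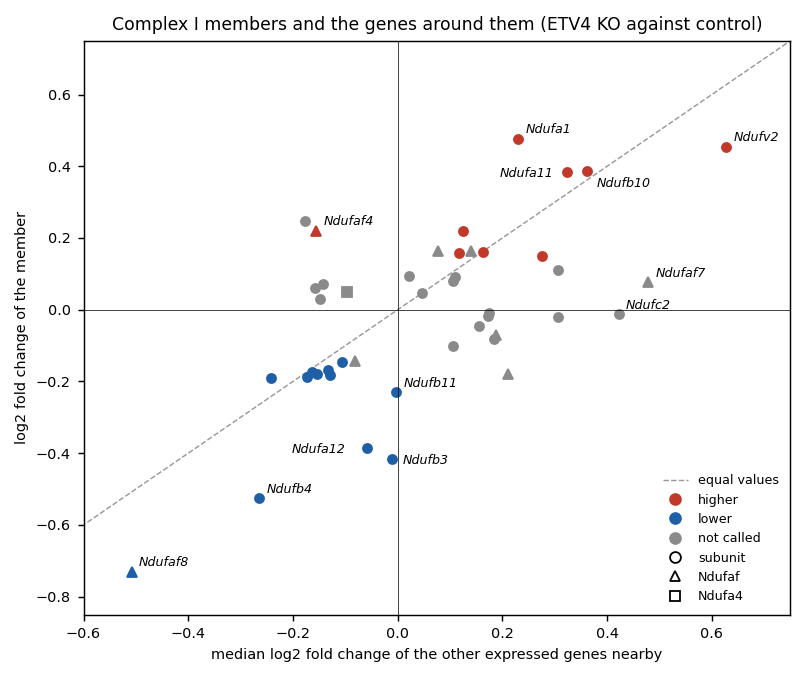
Log2 fold change of the members (all but 1 drawn; y axis) against the local median of its 10 Mb bin (x axis); the dashed line marks equal values. Members called higher sit mostly right of 0 and members called lower left of 0, while Ndufb3, Ndufa12 and Ndufb11 fell with local medians near 0.

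With the local medians taken out of the fit, 7 members were called higher and 17 lower, with a background of 64.8% called, 30.5% higher and 34.2% lower. Of the 22 members called before, 8 were still called, 7 of them in the same direction. Ndufb3 (-0.40), Ndufa12 (-0.33), Ndufb11 (-0.23), Ndufb4 (-0.26) and Ndufaf8 (-0.22) were still lower, and Ndufaf4 (0.38) and Ndufa1 (0.25) were still higher. Ndufb3 and Ndufa12 had local medians of -0.01 and -0.06, so their values barely moved. Ndufv2 turned from 0.45 to -0.17 (edgeR adjusted p = 0.00056), since its bin had a median of 0.63. Ndufb10 (0.02), Ndufa11 (0.06), Ndufb8 (0.10), Ndufb7 (-0.01), Ndufb9 (-0.002) and Ndufs3 (0.04) were no longer called. The smaller falls of Ndufa9 (-0.02), Ndufc1 (-0.05), Ndufa13 (-0.04), Ndufa5 (-0.03) and Ndufb6 (-0.02) also lost their calls, and so did Ndufs5 (0.05) and Ndufs6 (-0.13), which turned sign. Conversely Ndufc2, at -0.01 in a bin with a median of 0.42, was called lower at -0.43, and so were Ndufaf7 (-0.40), Ndufaf1 (-0.39), Ndufa7 (-0.33), Ndufa3 (-0.26), Ndufaf2 (-0.26), Ndufs8 (-0.21), Ndufa2 (-0.20), Ndufv3 (-0.20), Ndufa8 (-0.19) and Ndufs4 (-0.18). Ndufb2 (0.43), Ndufb5 (0.22), Ndufs7 (0.21), Ndufa10 (0.18) and Ndufa4 (0.15) were newly called higher. This fit treats the local median as a known value, without the scatter of the genes it summarises, so its calls are no test of a member against its neighbours.

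Within each group the subunit genes moved together from library to library. ETV4 KO replicate 2 held the highest of the 3 ETV4 KO values in 25 of 36 subunit genes. ETV4 KO replicate 1 held the lowest in 22. Among the controls replicate 2 was highest in 24 and replicate 1 lowest in 25, the same replicate numbers as in ETV4 KO. The median deviation from the group mean on the log2 scale was 0.07 in ETV4 KO replicate 2 and -0.06 in ETV4 KO replicate 1, about as large as many of the differences between groups. The 233 expressed genes with a summed exon length under 1200 bases did the same, with 0.06 and -0.05, while the medians over all 9037 expressed genes were within 0.001 of 0. The part of transcript length in the members' values was not tested.

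Some members share sequence with a neighbour, and although the kit (TruSeq Stranded mRNA) keeps strand, no source used here says whether reads were counted by strand. The largest shares of a member's summed exons overlapped by a gene on the other strand were 65.6% for Ndufaf2 (B230220B15Rik, 20 counts over the 6 libraries), 257 of 659 bases for Ndufb6 (Smim27, 88 counts) and 30.0% for Ndufa13 (Tssk6, 429 counts). These 3 partners had few counts beside the members. Without the strand setting, few counts of a partner do not show that the member kept the shared reads. On the same strand Gm49356 (11 counts) overlaps 19.5% of the exons of Ndufb9. Gm20538 (0 counts) overlaps 4.26% of those of Ndufb8 and Gm42420 (0 counts) 2.58% of those of Ndufb2. Strand cannot separate the reads shared with these genes. Partners with more counts included Mrpl47 (2618), which overlaps 12.3% of the exons of Ndufb5, and Rbm10 (12317), which overlaps 12.9% of those of Ndufb11. Smaller shares were those of Vmac (1366 counts, 6.41% of Ndufa11) and Kbtbd4 (4183, 4.04% of Ndufs3). Impdh2 (39467) overlaps 2.64% of Ndufaf3 and Eef1b2 (84902) 0.111% of Ndufs1. Vmac (0.42), Kbtbd4 (0.43) and Impdh2 (0.18) were called higher and Eef1b2 (-0.25) lower. Their part in the members' values was not tested. Rbm10 had more counts than Ndufb11 and was itself called lower (-0.11, SE 0.040, edgeR adjusted p = 0.0186); its part in the fall of Ndufb11 was not tested. Near-identical copies of Nduf genes elsewhere in the genome can also take reads, so levels of single members are uncertain to that extent, the low level of Ndufb2 included.

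The 7 complex I subunits encoded in mitochondrial DNA mostly rose: 6 of 7 were called higher and 0 lower, with a median log2 fold change of 0.67. Over all genes tested 35.0% were called higher and 36.0% lower. mt-Nd1 had 3495, 3293 and 3445 CPM in controls and 5674, 5274 and 5370 CPM in ETV4 KO (0.67, SE 0.032, edgeR adjusted p = 2.03e-17). mt-Nd5 had 1479 CPM ± 81.1 and 2455 CPM ± 120.1 (0.73), and mt-Nd6, the subunit encoded on the opposite strand, 315.3 CPM ± 8.08 and 546.7 CPM ± 38.8 (0.79; SD, n = 3 each). mt-Nd2 rose by 0.71 and mt-Nd4 by 0.34, all without overlap between groups. mt-Nd3, at 2.87 CPM in controls, rose by 0.49, a call lost without ETV4 KO replicate 1 (0.30, edgeR adjusted p = 0.107), and mt-Nd4l (0.27, SE 0.27) did not pass. Outside complex I, mt-Co1 had 0.25 (SE 0.033, edgeR adjusted p = 8.2e-08) and mt-Cytb 0.07 (SE 0.036, edgeR adjusted p = 0.103), genes named after their values were seen. Summed, the ND genes held 8032 CPM ± 281.2 in controls and 12678 CPM ± 789.1 in ETV4 KO (SD, n = 3 each), a rise of 57.8%, beside a change of -0.262% in the 36 nuclear subunit genes; the difference between the sums was not tested. All mitochondrially encoded genes together held 1.80% to 1.96% of counts in controls and 2.27% to 2.51% in ETV4 KO. Counts of these genes are uncertain, since mt-Co2, mt-Co3, mt-Atp6 and mt-Atp8 had 0 to 11 counts per library beside at least 142198 for mt-Co1, and how reads that match nuclear copies were treated is not stated in any of these sources.

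**Figure D4:**
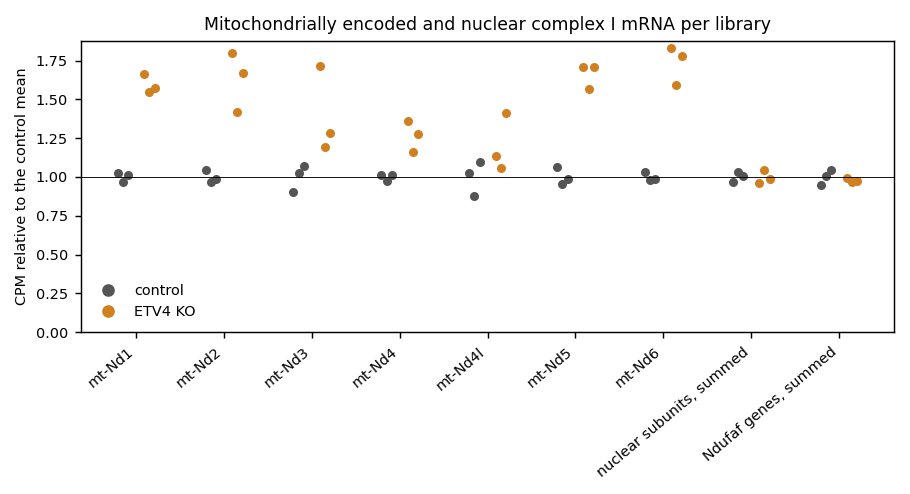
CPM of each mt-Nd gene, and of the summed nuclear subunit and Ndufaf genes, in each library relative to the control mean (y axis, from 0; grey control, orange ETV4 KO). mt-Nd1, mt-Nd2, mt-Nd5 and mt-Nd6 lie well above 1 in all ETV4 KO libraries, while the nuclear sums lie near 1 in every library.

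Of the assembly factors of complex I without an Nduf symbol, 2 of 13 tested rose and 7 fell (median -0.18). With 69.2% called, this list was near the 71.1% of all genes tested. Lyrm2, which aids assembly of the N module, had 13.6 CPM ± 0.757 in controls and 8.32 CPM ± 0.267 in ETV4 KO (SD, n = 3 each) and fell (-0.71, SE 0.083, edgeR adjusted p = 7.69e-09), and Dmac1, a factor of the distal membrane arm, had -0.39. Ecsit rose by 0.26, a call lost without control replicate 3 (0.19). Acad9 was called at 0.11 (SE 0.048, edgeR adjusted p = 0.0469). That call was lost without control replicate 1 (0.11), without control replicate 3 (0.06) and without ETV4 KO replicates 1 (0.11), 2 (0.11) or 3 (0.11). Upper-quartile scaling (0.07), library size alone (0.06) and DESeq2 (0.11) lost it as well. So did a filter of at least 1 CPM in at least 3 samples (0.10) and leaving out the mitochondrially encoded genes (0.10).

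The nuclear genes of the other complexes also went both ways. The share called was 62.5% in complex II, 71.4% in complex III, 68.8% in complex IV and 86.7% in ATP synthase. Of all genes tested 71.1% were called. Complex II had 2 of 8 genes higher and 3 lower (median 0.05), among them the assembly factor Sdhaf4, which fell from 8.73 CPM to 3.47 CPM (-1.35), the flavin subunit Sdha (0.19), Sdhaf2 (0.19) and Sdhc (-0.15). Complex III had 5 of 14 higher and 5 lower (median -0.07), with the assembly factor Uqcc2 at 0.71, cytochrome c1 (Cyc1) at 0.29, Uqcr10 at -0.21 and Uqcr11 at -0.14; the Uqcr11 call was lost without control replicate 2 (-0.11). Complex IV had 5 of 16 higher and 6 lower (median -0.06), with Cox8a at 0.32, Cox6c at 0.16, and the assembly factors Cox11 at -0.45 and Sco1 at -0.24. ATP synthase had 5 of 15 higher and 8 lower (median -0.10), with Atp5k at 0.36, Atp5g3 at 0.22, Atp5h at -0.52 and Atp5j at -0.27. With the local medians taken out, Sdha (-0.09), Cox6c (-0.25), Uqcr10 (0.03) and Sco1 (0.12) turned sign, and Sdhaf2, Sdhc, Uqcr11, Cox11, Atp5k, Atp5g3, Atp5h and Atp5j were no longer called.

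Among regulators of mitochondrial biogenesis 5 of 11 rose and 2 fell (median 0.14). That is 63.6% called, fewer than the 71.1% of all genes tested. Ppargc1b, a coactivator of respiratory genes, rose from 2.72, 2.14 and 3.04 CPM to 7.20, 7.997 and 7.86 CPM (1.56, SE 0.13, edgeR adjusted p = 9.48e-12), and Esrra, an orphan nuclear receptor it partners with, rose by 0.48 (SE 0.048, edgeR adjusted p = 3.12e-10). Tfam, which packages and transcribes mitochondrial DNA, fell from 48.8, 46.2 and 47.6 CPM to 34.9, 38.1 and 35.8 CPM (-0.39, SE 0.049, edgeR adjusted p = 3.6e-08), in the opposite direction to the mt-Nd genes. Gabpa, the ETS-domain subunit of nuclear respiratory factor GABP, had -0.19 (SE 0.040, edgeR adjusted p = 8.85e-05) and 0.08 with the local medians taken out. Ppargc1a had 0 counts in all 6 libraries.

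**Figure D5:**
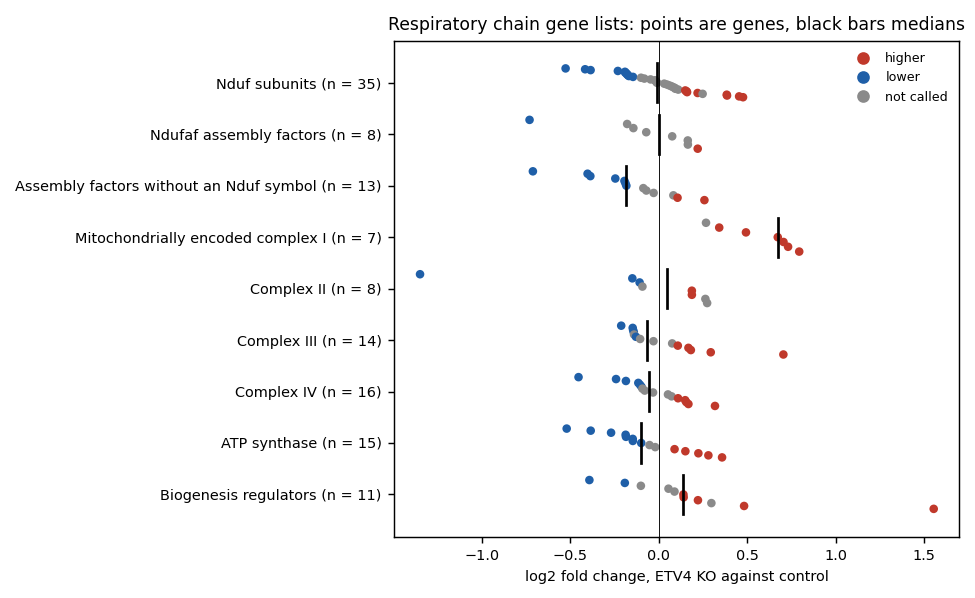
Log2 fold change in ETV4 KO against control (x axis) of the tested genes (1 subunit gene is not drawn) in the lists of respiratory chain genes and biogenesis regulators, coloured by the call; black bars are medians. The mitochondrially encoded complex I genes lie wholly above 0, with a median of 0.67, while the nuclear lists straddle 0.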

How the data were processed

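The values are raw counts, 1 row per gene symbol and 1 column per library, as the authors deposited them; whole numbers with differing totals gave the unit. Per the submitters' processing notes the tools included featureCounts, STAR 2.7.9a, FastQC 0.11.9 and R 4.1.1, and the builds were mm10 and hg38. Not given in the sources used here were the annotation, the strand setting of the counting and the handling of multiply mapping reads. Columns were matched to samples by library name, and samples to groups by title.

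The counts were analysed with edgeR 4.0.16 in R 4.3.3: filterByExpr (minimum count 10, minimum total 15), TMM, and the quasi-likelihood F test (glmQLFit, glmQLFTest) between the groups, with Benjamini-Hochberg adjustment over 12076 genes. SEs were derived from the fold change and F (absolute log2 value over root F). DESeq2 1.42.0 and limma-voom (limma 3.58.1) were alternatives. Gene positions and lengths are from GENCODE M21 (mm10), which gave 1 position for 30416 of 31017 symbols. Local medians used genes with a log2 CPM above 3, in 10 Mb bins with at least 10 such genes. Counts of 12076 genes were simulated, with 50 genes changed per fold size. The test recovered 76% of the 1.2-fold, 84% of the 1.5-fold, 98% of the 2-fold and 96% of the 4-fold changes. Of 11876 unchanged genes 7 were called. Few genes changed in the simulation, whereas 71.1% of the genes tested were called in the data. Each simulated count was drawn independently, without the shifts that genes share within a library. These rates therefore need not hold for the deposited libraries.

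The members and lists were chosen with earlier results of these data known. Members could be named by rule; 1 is not reported here by name, though it stays in the fits, counts and sums. Per-library values are given for the 6 largest and 6 smallest log2 fold changes, the core subunits, the Ndufaf genes and Ndufa4. From the other lists every mt-Nd gene and up to 2 called genes per direction with the smallest adjusted p are named.

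Alternatives covered 3 other scalings (RLE, upper quartile, library size), the filters, DESeq2, voom, a replicate block, glmTreat against a fold change of 1.2, a threshold of 0.01, local medians taken out, and each library left out in turn.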

Additional observations from a re-analysis of the deposited data

How the results depend on the processing

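Changing the scaling, the filter or the tool left the counts of members called within 8 to 10 higher and 12 to 16 lower, beside 9 and 13. Over all genes these settings called 3670 to 4435 higher and 4012 to 4914 lower, beside 4232 and 4350. Under every alternative other than local medians taken out, glmTreat and an adjusted p under 0.01, 14 of the 22 called members kept their call, and 5 (Ndufa1, Ndufa12, Ndufaf8, Ndufb3, Ndufb4) kept it under all of them. Against a fold change of 1.2 (glmTreat), 4 members were higher and 4 lower, of the subunit genes 4 and 3, and of the Ndufaf genes 0 were higher. Leaving out 1 library gave 7 to 11 subunit genes higher and 7 to 14 lower, the fewest lower without ETV4 KO replicate 3, and 0 to 1 Ndufaf genes higher and 1 to 2 lower. Over all genes the fits with 1 library left out called 4028 to 4190 higher and 4111 to 4329 lower. In these fits the Ndufaf median ran from -0.003 to 0.0423. With upper-quartile scaling 2 Ndufaf genes were lower and the median was -0.0344, and with library size alone 2 and -0.048. With local medians taken out 5 subunit genes were higher, 4 Ndufaf genes lower, and the Ndufaf median was -0.1417. The cause of these shifts was not tested.

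Signs turned with local medians taken out for Ndufv2 (-0.173), Ndufs5 (0.0512), Ndufs6 (-0.1258), Ndufb9 (-0.002), Ndufab1 (-0.0174), Ndufa6 (-0.0003), Ndufv3 (-0.1953), Ndufaf7 (-0.4016), Ndufv1 (-0.0255), Sdha (-0.0887), Uqcr10 (0.0328), Cox6c (-0.254), Sco1 (0.1225) and Gabpa (0.079). Scaling turned Ndufa10 (-0.006 upper quartile, -0.0198 library size), Ndufa4 (-0.0009 library size) and Ndufa6 (-0.0044 library size). Leaving out 1 library turned the sign of 6 members that were not called; their values ran from -0.0042 to 0.049 (Ndufa10), -0.0674 to 0.0265 (Ndufa8), -0.0641 to 0.0279 (Ndufc2), -0.0806 to 0.0329 (Ndufs4), -0.052 to 0.0087 (Ndufa7) and -0.0744 to 0.0068 (Ndufa2).

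Over all tested genes same-numbered samples deviated together with r of 0.025, 0.054 and 0.028. The replicate numbers were therefore not taken to pair the samples, although each sample correlated best with its own number. In the subunit genes replicate 2 was most often highest and replicate 1 most often lowest in both groups. The labels do not say whether same-numbered samples were handled together, and this was not tested. With the replicate number as a block 13 members were higher and 14 lower. Over all genes this block gave 4378 higher and 4504 lower, beside 4232 and 4350 without it. The member calls gained were Ndufs1 (0.09), Ndufv1 (0.08), Ndufv3 (0.11), Ndufab1 (0.09) and Ndufs8 (-0.10). Leaving out the mitochondrially encoded genes before normalization, chosen after seeing the data, gave 9 and 13. At 2 to 4 CPM, as in Ndufb2 (SE 0.16), only large differences were detectable.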

Other observations

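The library that ran high for the subunit genes ran low for the mt-Nd genes. ETV4 KO replicate 2 was the lowest of its group in 7 of 7 mt-Nd genes, with a median log2 deviation from the group mean of -0.12, and ETV4 KO replicate 1 the highest in 6 of 7, with 0.08. Among the controls, replicate 2 was the lowest in 6 of 7, with -0.05. Of the 8 Ndufaf genes, ETV4 KO replicate 2 was the highest in 1 and the lowest in 4. Control replicate 1 was the lowest of its group in 5 of these 8, with a median log2 deviation of -0.08.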
